A study of Mus musculus with 2 samples.

Results

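Integrins are cell surface receptors built from 1 alpha and 1 beta subunit. The 10 subunit genes described here are a chosen set of those outside the hemidesmosome, the anchoring junction formed with the alpha6 beta4 integrin. The set is Itgb1, Itga2, Itga3, Itga9, Itgav, Itgb5, Itgb6, Itgb8, Itgae and Itgb2. They were taken by symbol from the 27998 genes in both count matrices, and all 10 were found. The study measured single-cell RNA in the epidermis of newborn mice without Chrm3, which encodes a muscarinic acetylcholine receptor (M3). Both libraries came from male Chrm3 KO C57BL/6J mice at postnatal day 0, 1 mouse per library, after the epidermis was lifted off the dermis and dead cells were removed. No wild-type library was analysed here, so every comparison below is between cell classes inside KO epidermis, with both mice as replicates, and none is an effect of the KO.

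Itgb1 pairs with many alpha subunits, and in basal keratinocytes its partners Itga2 and Itga3 bind collagen and laminin of the basement membrane. The partners of Itgav include Itgb5, Itgb6 and Itgb8. The beta6 and beta8 pairs bind the latency peptide of transforming growth factor beta (Tgf-beta) and release or present the active factor, while the beta5 pair binds vitronectin. Itgb2 and Itgae are leukocyte subunits: beta2 pairs with Itgal, Itgam and Itgax, and alphaE pairs with Itgb7 to bind E-cadherin (Cdh1) on epithelial cells.

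The libraries held 10816 and 15867 barcodes with 109756784 and 166441732 unique molecular identifiers (UMIs, 1 per captured transcript), of which 7607 and 11881 cells passed the limits on genes and mitochondrial share. The kept cells had a median of 10480 and 10577 UMIs. Chrm3 itself gave 13 and 19 UMIs in all kept cells, and without a wild-type library this level does not check the genotype. The 10 integrin genes gave 33426 and 52390 UMIs, 0.0352% of all UMIs in each mouse, and 21715 and 35611 of these were Itgb1. The libraries shared 127 barcodes, 34 of them among kept cells. Levels are CPM, counts per 1e+06 UMIs summed over the cells of a class in 1 mouse, given as mouse 1 then mouse 2. They count 3-prime transcript ends and therefore are not divided by gene length.

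Cells were clustered with all integrin genes left out of the variable genes, and clusters were named from marker lists, so a class name means cells like that type. Interfollicular epidermis (IFE) fell into resting basal cells (3890 cells), proliferating basal cells (815), transition cells with basal and suprabasal keratins (1004), differentiated cells (321) and terminally differentiated cells (105). Follicle and gland classes were hair follicle progenitors (3704 cells), proliferating follicle, Shh-expressing follicle, inner root sheath and hair shaft, Krt79-rich upper follicle and sebaceous-like cells. Melanocyte-like (1165 cells), Langerhans-like (338), T-like (90), Merkel-like (39) and dermal mesenchyme-like cells (109) completed the named set. Defining genes were where the names put them for most classes: Pmel had a mean of 3614 CPM in melanocyte-like cells, Cd3g 3775 CPM in T-like cells and Lor 15560 CPM in terminally differentiated cells. Langerhans-like cells had 6624 CPM of Cd74 and 240.4 CPM of Ptprc, but only 1.9 CPM of Cd207, the langerin gene of mature Langerhans cells. The complement genes C1qa, C1qb and C1qc, known from macrophages, were among the 10 leading genes of their cluster. These complement genes were on the marker list that gave the name, so the name alone does not set the cells apart from macrophages. Clusters led by Ccl27a and Pou3f1 (1583 cells) and by Tagln and Foxe1 (558 cells) met no marker list and stayed unnamed, and 893 proliferating cells could not be given to 1 lineage. These 2 unnamed clusters and the mixed cells entered no test.

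The promoters of 3 genes are shown because the results turn on these genes: Itgb1 was detected in every class, whereas Itgb6 and Itgb8 were higher in hair follicle progenitors than in resting basal IFE. Itgb1 lies on chr8:128685654-128733200 (plus strand), Itgb6 on chr2:60598292-60722643 (minus strand) and Itgb8 on chr12:119158022-119238802 (minus strand) in GRCm38, the files' build (mm10). The other genes lie on chr13:114833081-114932100 (Itga2), chr11:95044474-95076801 (Itga3), chr9:118606690-118901003 (Itga9), chr2:83724397-83806916 (Itgav), chr16:33829665-33949338 (Itgb5), chr11:73090583-73147446 (Itgae) and chr10:77530252-77565708 (Itgb2). The 250 bases before a RefSeq start of each gene (GRCm38.p6) are chr8:128685404-128685653, chr2:60722604-60722853 and chr12:119238277-119238526, printed 5′ to 3′ on the gene's strand. Itgb6 has another RefSeq start, whose window (chr2:60673694-60673943) is not printed. Capitals mark matches, on either strand, to any of 6 motifs that are spelled out after the sequences.

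Itgb1 promoter: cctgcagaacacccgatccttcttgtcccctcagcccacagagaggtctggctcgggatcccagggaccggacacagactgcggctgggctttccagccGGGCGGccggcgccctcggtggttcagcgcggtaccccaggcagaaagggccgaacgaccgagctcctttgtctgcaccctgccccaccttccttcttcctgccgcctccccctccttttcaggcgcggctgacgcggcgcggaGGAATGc
Itgb6 promoter: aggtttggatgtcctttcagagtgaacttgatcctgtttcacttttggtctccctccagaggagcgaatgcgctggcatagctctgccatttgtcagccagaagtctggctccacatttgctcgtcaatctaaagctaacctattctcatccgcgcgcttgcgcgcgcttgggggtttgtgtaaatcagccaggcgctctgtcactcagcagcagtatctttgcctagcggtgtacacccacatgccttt
Itgb8 promoter: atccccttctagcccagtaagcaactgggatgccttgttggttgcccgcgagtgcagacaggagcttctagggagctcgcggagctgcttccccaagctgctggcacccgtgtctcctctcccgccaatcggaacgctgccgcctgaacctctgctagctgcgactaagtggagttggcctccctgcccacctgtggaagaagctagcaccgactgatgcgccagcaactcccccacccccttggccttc

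The Itgb1 window was the richest of the 3 in G and C (68.0%, 21 CpG dinucleotides) and held 1 GC box and 1 TEAD match next to the start. The printed Itgb6 window (52.0%, 11 CpG) and the Itgb8 window (62.4%, 12 CpG) held none of the 6 motifs. Nor did the other Itgb6 window (38.0%, 3 CpG). Among all 32851 promoter windows of this length, the GC box, searched as GGGCGG, was found in 32.7%. The TEAD motif, searched as CATTCC, was found in 12.6% of the same windows. Neither printed Tgf-beta subunit window held the LEF/TCF letters CTTTGA, which 13.8% of all windows held. The RUNX letters searched were TGTGGT, present in 14% of all windows. The TATA box, searched as TATAAA, was present in 12.4% of them. The AP-1 motif, searched as TGANTCA, was the rarest of the set at 6.75%. A RefSeq window was found for 8 of the 10 genes. The Itgb6 and Itgb8 starts in this window set lie inside the genes' annotated spans.

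Each gene had its own distribution over the classes. Itgb1 ranged from 20.8 and 34.1 CPM in differentiated IFE to 388 and 397 CPM in melanocyte-like and 431 and 342 CPM in dermal mesenchyme-like cells, which the spread between the mice does not order. Itgb5 and Itgav were found in every class. Itga9, Itgae and Itgb2 were near 0 in keratinocytes and high in 1 to 3 non-epithelial classes. All 10 genes passed the filter on low counts in the fit over 16 classes, but Itga9, Itgae and Itgb2 did so only through those classes, so their passing is no evidence of expression elsewhere.

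**Figure D1:**
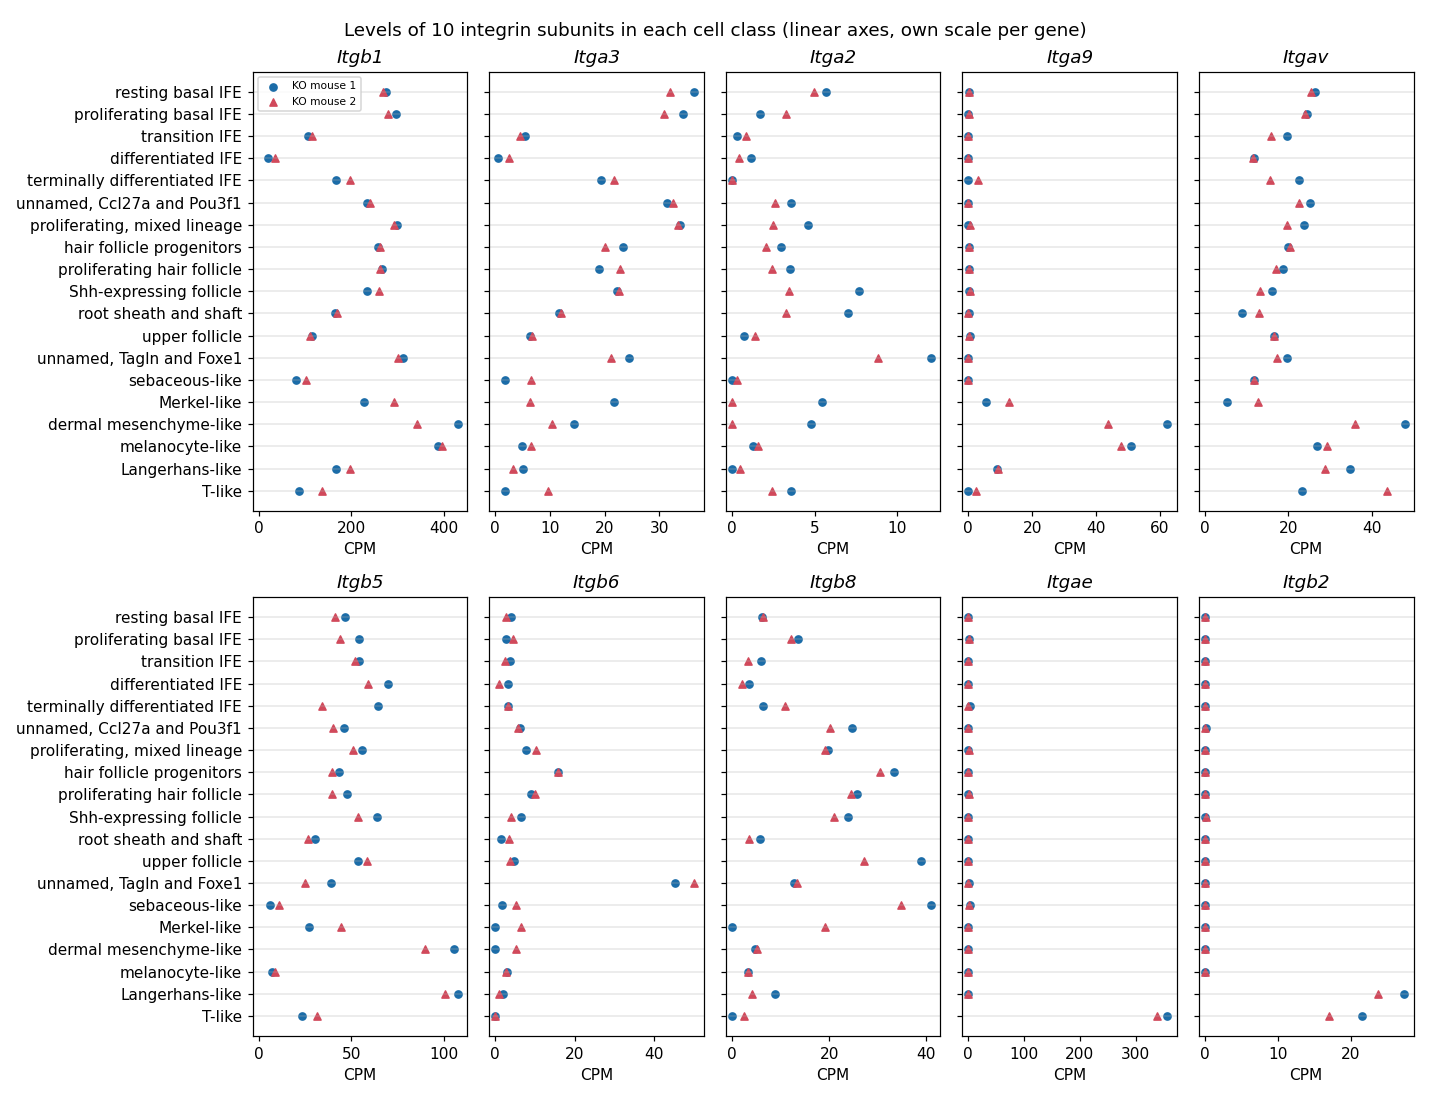
Level of each of the 10 integrin subunits (CPM of summed UMIs, linear axis with its own scale per gene) in 19 groups of cells, with a circle for KO mouse 1 and a triangle for KO mouse 2. Itgae stands apart in T-like cells (356 and 339 CPM) and Itgb6 in the unnamed cluster led by Tagln and Foxe1 (45.2 and 50.05 CPM).

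Along the IFE, the basement membrane receptors Itgb1, Itga3 and Itga2 fell from the basal layer outward, and Itgb5 rose. Itga2 and Itgb5 lost their calls with cells under 5% mitochondrial UMIs alone. The Itgb5 levels of resting basal and differentiated cells then overlapped. Itgb1 was at 274 and 269 CPM in resting basal cells, 106 and 115 CPM in transition cells and 20.8 and 34.1 CPM in differentiated cells. Every step was larger than the gap between the mice. In the edgeR fit over all genes, the log2 fold change of Itgb1 against resting basal cells was -1.19 ± 0.14 (SE) in transition cells (adjusted p = 6.62e-08) and -3.03 ± 0.16 in differentiated cells (adjusted p = 1.56e-15).

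Itga3, the laminin-binding partner of Itgb1, fell at both stages. Its level was 36.3 and 31.8 CPM in resting basal cells, 5.44 and 4.45 CPM in transition cells, and 0.468 and 2.48 CPM in differentiated cells, where it rested on 2 and 12 UMIs. The log2 fold changes were -2.68 ± 0.22 in transition cells (adjusted p = 2.09e-10) and -4.19 ± 0.32 in differentiated cells (adjusted p = 4.23e-12). The latter was -3.42 without mouse 1 and -5.94 without mouse 2. Itga2, the collagen receptor subunit, was at 5.68 and 4.95 CPM in resting basal cells (80 and 125 UMIs). It was at 0.340 and 0.8425 CPM in transition cells, with a log2 fold change of -2.91 ± 0.51 (adjusted p = 6.14e-05), and at 1.17 and 0.413 CPM in differentiated cells, with -2.48 ± 0.58 (adjusted p = 0.000645). Its transition value was -3.88 without mouse 2, and its differentiated value -3.29 without mouse 1.

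Itgav changed less. It was at 26.3 and 25.5 CPM in resting basal cells, 19.7 and 15.8 CPM in transition cells and 11.7 and 11.6 CPM in differentiated cells, with log2 fold changes of -0.44 ± 0.14 (adjusted p = 0.0183) and -0.88 ± 0.17 (adjusted p = 5.34e-05). Its partner Itgb5 went the other way, from 46.3 and 41.0 CPM through 53.9 and 51.9 CPM to 69.9 and 58.7 CPM. Both steps passed the test against resting basal cells, at 0.39 ± 0.13 (adjusted p = 0.021) and 0.83 ± 0.13 (adjusted p = 5.01e-06). The first lost its call with likely doublets left out (adjusted p = 0.0614).

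Of the Tgf-beta binding subunits, Itgb8 was lower in differentiated cells and Itgb6 passed no test. Itgb6 was between 1.03 and 3.97 CPM from the resting basal to the differentiated class and did not pass the test in either step. Itgb8 was at 6.25 and 6.34 CPM in resting basal, 5.95 and 3.25 CPM in transition and 3.51 and 2.07 CPM in differentiated cells. Its difference passed the test in differentiated cells only (log2 fold change -0.92 ± 0.35, adjusted p = 0.0275) and was lost at the finer clustering (adjusted p = 0.0562). Transition and differentiated cells were not tested against each other.

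In counts, 4 of the 10 genes were lower and 1 was higher in transition cells, where 15.6% of the 14090 genes tested were lower and 14.4% higher. In differentiated cells 5 were lower and 1 was higher, where 26.6% of all genes were lower and 25.5% higher. The cells were grouped by their other genes, which partly sets how far the groups differ. With cells under 5% mitochondrial UMIs alone, Itgb1 and Itga3 kept their calls at both stages, while Itga2 and Itgb5 lost theirs at both, Itgav at the transition stage and Itgb8 at the differentiated stage. The log2 fold changes of the lost calls in transition cells were then -3.27 for Itga2, -0.64 for Itgav and 0.32 for Itgb5 (adjusted p = 0.0602, 0.0881 and 0.367). In differentiated cells they were -2.06 for Itga2, 0.37 for Itgb5 and -0.88 for Itgb8 (adjusted p = 0.117, 0.176 and 0.156). Under this limit Itgb5 was at 52.3 and 47.7 CPM in resting basal and 55.8 and 57.0 CPM in transition cells. It was at 49.4 and 48.9 CPM in differentiated cells.

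Terminally differentiated cells broke the trend. Itgb1 was at 168 and 197 CPM there, above differentiated cells in both mice, and Itga3 at 19.4 and 21.8 CPM (6 and 14 UMIs). The log2 fold changes against differentiated cells were 2.37 ± 0.20 (adjusted p = 3.9e-10) and 3.38 ± 0.59 (adjusted p = 5.28e-05), the latter 2.79 without mouse 1 and 4.86 without mouse 2. Itgb5 was lower, at 64.6 and 34.2 CPM (log2 fold change -0.91 ± 0.24, adjusted p = 0.00458), but its 2 groups overlap. With cells under 5% mitochondrial UMIs the call was lost (log2 fold change -0.47, adjusted p = 0.372), at 74.1 and 27.1 CPM against 49.4 and 48.9 CPM. Itga2 had no UMI in the class. When IFE cells were clustered alone, the terminal subcluster (236 cells, median 17898 UMIs) had 5 and 6 UMIs of Itga2. Itgb1 was at 169.6 and 195.3 CPM and Itgb5 at 46.1 and 46.5 CPM in that subcluster. Itga9 also passed the test, but on 2 UMIs of mouse 2 against none in differentiated cells, and its log2 fold change was 0 without mouse 2. Here 13.6% of all genes were higher and 13.7% lower, and of the 10 genes 3 were higher and 1 was lower. Itga9 passed the filter only through other classes, so nothing is read from its part in the count.

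Basal keratin RNA moved with these values between the differentiated and terminal classes, but not at the transition stage. In transition cells Krt5 and Krt14 summed were at 86.9% and 102% of their resting basal level. Itgb1 was at 38.5% and 42.6% and Itga3 at 15% and 14% in those cells. Krt5 and Krt14 together were at 6.5% and 8.11% of their resting basal level in differentiated cells and at 31.7% and 37.4% in terminally differentiated cells. Itgb1 was at 7.59% and 12.7%, then 61.2% and 73.2%, of its own resting basal level in the same classes, and Itga3 at 53.3% and 68.3% in the last. Lhx2, a follicle gene, was at 208.1 CPM in the terminal class against 30.5 CPM in differentiated cells. Mki67, a gene of dividing cells, was at 224.6 CPM against 19.9 CPM. The inner root sheath keratin gene Krt28 was at 207.4 CPM against 30.5 CPM. Krt79 of the upper follicle was at 222.8 and 717.6 CPM against 646.4 and 461.1 CPM, so the mice went in opposite directions. Cells of the terminal class had a median of 7864 UMIs against 24362 in differentiated cells. The part of other cells in these values was not tested. With likely doublets left out the log2 fold change of Itgb1 was 2.52 (adjusted p = 8.52e-10) and that of Itga3 was 3.69 (adjusted p = 0.000106).

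**Figure D2:**
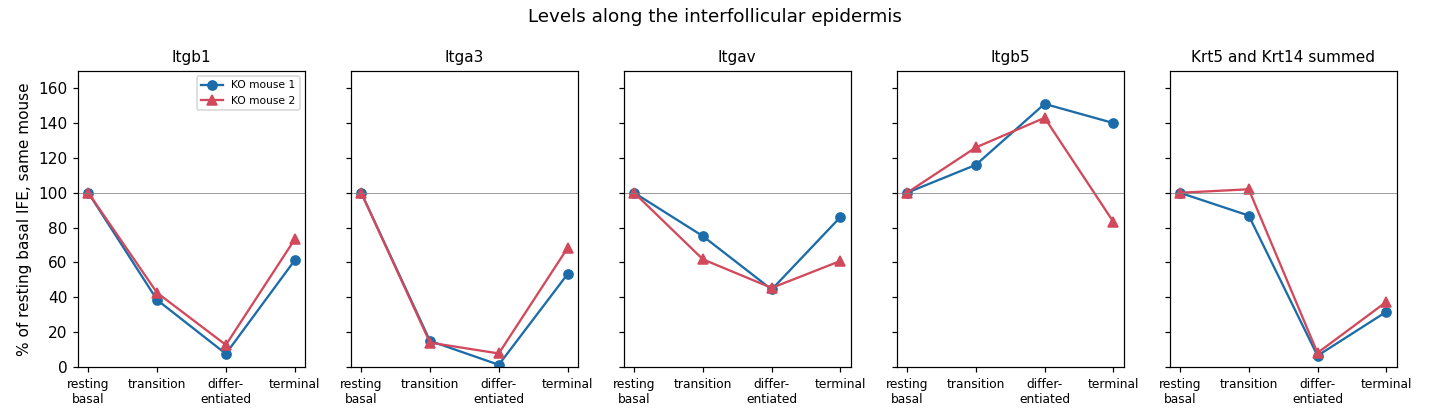
Level of Itgb1, Itga3, Itgav, Itgb5 and of Krt5 and Krt14 summed at 4 IFE stages, as a percentage of resting basal IFE in the same mouse (lines join the stages of 1 mouse; the grey line is 100%). Itgb1 reaches its low at the differentiated stage (7.59% and 12.7%) and stands at 61.2% and 73.2% in the terminal class, where the keratins stand at 31.7% and 37.4%.

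Within the basal layer Itgb8 differed between cell states. Proliferating basal cells held 13.7 and 12.2 CPM of Itgb8 against 6.25 and 6.34 CPM in resting ones (log2 fold change 0.91 ± 0.22, adjusted p = 0.00368), and the mice did not overlap. The naming of all cells set dividing but not S-phase clusters apart. Clustering IFE cells alone gave subclusters of 455 and 298 dividing and 346 S-phase cells, together more than the 815 proliferating cells. Some cycling cells therefore lay in other IFE classes, and their part in the resting class was not counted. Itgb1 was at 297 and 280 CPM against 274 and 269 CPM (log2 fold change -0.02 ± 0.13, adjusted p = 0.964). Itga2 was at 30.1% and 66.2% of its resting basal level and just missed the threshold (log2 fold change -1.06 ± 0.37, adjusted p = 0.0505). Itgae was also called higher, from 2 and 6 UMIs in proliferating cells against 1 and 3 in resting cells, and lost the call with no filter (adjusted p = 0.061). Of all genes 9.49% were higher and 7.5% lower, and of the 10 integrin genes 2 were higher and 8 did not pass. Itgae passed the filter only through T-like cells, so nothing is read from its part in the count.

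The resting class pooled clusters that differed widely in Itgb8. The cluster led by H19 and Igf2 had 0.617 and 1.02 CPM, the one led by Pcsk2 and Ackr4 had 3.11 and 3.38 CPM, and the one led by Pltp and Sparc had 14.3 and 13.01 CPM. Itgb1 in the same clusters was between 238.1 and 299.8 CPM. When IFE cells were clustered alone, Itgb8 was at 0.353 and 1.01 CPM in H19-high basal cells (2 and 10 UMIs), 3.58 and 3.99 CPM in Sox4-high cells, 12.7 and 11.2 CPM in S-phase cells, 13.6 and 12.5 CPM in dividing cells and 17.9 and 17.15 CPM in a subcluster led by Fst, Col4a1, Ptch1 and Sox9, which the marker lists matched to hair follicle progenitors. That subcluster held 748 cells. Another 515 IFE cells, with 35981 CPM of Krt1 and Krt10 summed, matched the upper follicle list. A further 572, led by Ly6d and Stfa1, stayed unnamed. No subcluster was named transition at this resolution, and the differentiated one held 169 cells. The stage results above use the classes from the clustering of all cells. The name Sox4-high follows the marker list, of which 3 genes were enriched. Lef1 of that list was among the 10 leading genes of the subcluster, and Sox4 was not. The Sox4-high cells exceeded the H19-high cells by a log2 fold change of 2.23 ± 0.47 (adjusted p = 0.00617), which was 3.15 without mouse 2. That was the 1 call among 7 of the 10 genes that passed the filter in the IFE fit, where 3.48% of 11365 genes were higher and 5.58% lower. With the mouse as a block, Itgb1 was also called, lower in Sox4-high cells (log2 fold change -0.34, adjusted p = 0.000926), which makes 2 calls. With cells under 5% mitochondrial UMIs, 283 of the 815 proliferating and 614 of the 3890 resting basal cells remained, resting basal cells had 9.81 and 9.905 CPM of Itgb8, and neither the proliferating nor the Sox4-high comparison kept its Itgb8 call (log2 fold changes 0.27 and 0.73, adjusted p = 0.797 and 0.962).

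In hair follicle progenitors, Itgb6 and Itgb8 were both higher than in resting basal IFE. The progenitors had 15.9 and 15.9 CPM of Itgb6 against 3.97 and 2.57 CPM in resting basal IFE, and 33.3 and 30.4 CPM of Itgb8 against 6.25 and 6.34 CPM. All 4 progenitor values lay above the basal values of the same gene. The log2 fold changes were 2.20 ± 0.26 (adjusted p = 1.21e-07) and 2.21 ± 0.19 (adjusted p = 1.22e-10). Itga3 (23.3 and 20.0 CPM), Itga2 (2.96 and 2.08 CPM) and Itgav (19.9 and 20.3 CPM) were lower than in basal IFE, with log2 fold changes of -0.77 ± 0.16, -1.21 ± 0.32 and -0.48 ± 0.13 (adjusted p = 0.000356, 0.00375 and 0.0038). Itgb1 was at 258 and 261 CPM and did not pass the test (log2 fold change -0.19 ± 0.13). The calls of Itga2 and Itgav were lost with cells under 5% mitochondrial UMIs (adjusted p = 0.5 and 0.0615). With 2 of the 10 genes higher and 3 lower, the background was 16.9% of all genes higher and 15% lower.

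Itgb6 and Itgb8 were highest in different clusters, which were described and not tested. Of the 3 progenitor clusters, the one led by Sfrp1 and Tbx1 had 30.4 and 34.1 CPM of Itgb6, against 8.32 and 8.28 CPM and 8.61 and 6.44 CPM in the other two. The one led by Ncam1 and Bdnf had 50.15 and 38.5 CPM of Itgb8, against 26.9 and 26.8 CPM and 26.6 and 28.0 CPM. The highest Itgb6 of any group, 45.2 CPM (95% Poisson interval 37.7 to 53.7) and 50.05 CPM (44.5 to 56.1), was in the unnamed cluster led by Tagln and Foxe1, where 44.8% and 51.1% of cells had an Itgb6 UMI. In Langerhans-like cells the share was 1.38% and 1.04%, at median depths of 9704 UMIs per cell there and 13845.5 in the Tagln cluster. Thinned to 3000 UMIs per cell, the shares in the Tagln cluster were 16.2% and 13.4%. Itgb8 there was at 12.7 and 13.45 CPM, below the progenitors. Itga2 was also highest in this cluster (12 and 8.85 CPM). Lhx2, a follicle gene, had a mean of 667.9 CPM there.

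Itgb8 had several high classes. It was at 40.8 and 34.8 CPM in sebaceous-like cells, 38.8 and 27.1 CPM in upper follicle and 33.3 and 30.4 CPM in progenitors, and the spread between the mice does not order these 3. Proliferating follicle cells (25.7 and 24.5 CPM), the unnamed Ccl27a and Pou3f1 cluster (24.7 and 20.2 CPM) and Shh-expressing cells (23.8 and 21.0 CPM) followed. These classes were not tested against each other apart from upper follicle against progenitors, where the log2 fold change was 0.04 ± 0.17.

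**Figure D3:**
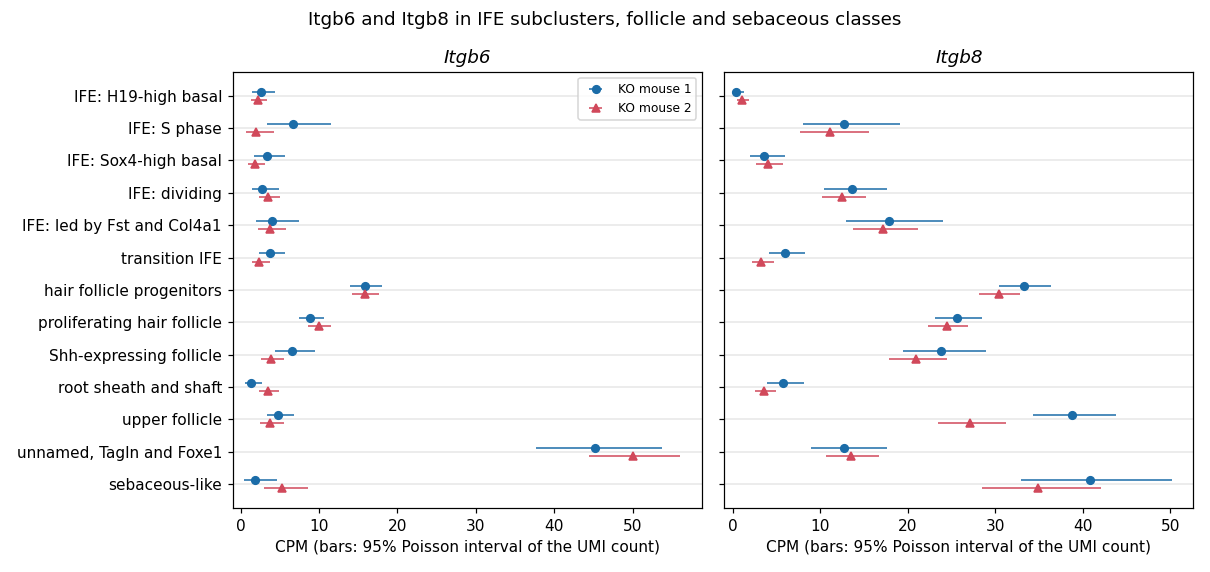
Itgb6 (left) and Itgb8 (right) in 5 subclusters of IFE cells clustered alone (the one led by Fst and Col4a1 matched the hair follicle progenitor markers) and in 8 classes of all cells, as CPM per KO mouse with exact 95% Poisson intervals of the UMI count, which cover counting error only. Itgb6 is highest in the Tagln and Foxe1 cluster (45.2 and 50.05 CPM), whereas Itgb8 is highest in sebaceous-like, upper follicle and progenitor cells and lowest in H19-high basal cells.

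Both Tgf-beta binding subunits were lower in inner root sheath and hair shaft cells than in progenitors. Itgb6 was at 1.33 and 3.48 CPM and Itgb8 at 5.71 and 3.58 CPM there, with log2 fold changes of -2.53 ± 0.32 (adjusted p = 2.63e-07) and -2.82 ± 0.23 (adjusted p = 5.91e-11). The Itgb6 value was -3.54 without mouse 2. Itgb1 (165 and 170 CPM), Itga3, Itgav and Itgb5 were lower as well, by log2 fold changes between -0.84 and -0.53. Itga2 was higher, at 7.045 and 3.27 CPM against 2.96 and 2.08 CPM (log2 fold change 0.98 ± 0.37, adjusted p = 0.0347), but lost the call with DESeq2 (adjusted p = 0.0751). The counts were 6 lower and 1 higher of the 10 genes, where 21% of all genes were lower and 19.4% higher. The 2 classes also differed in Mki67, a gene of dividing cells. Its mean was 524 CPM in inner root sheath and hair shaft cells against 51.5 CPM in progenitors. In proliferating follicle cells it was 579.9 CPM. The part of cell division in these differences was not tested.

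Upper follicle cells were lower in Itgb6 than progenitors, and no difference in Itgb8 was detected. Itgb6 was at 4.81 and 3.795 CPM (log2 fold change -1.89 ± 0.30 against progenitors, adjusted p = 7.18e-06). Itgb1 was at 116 and 110 CPM (log2 fold change -1.21 ± 0.14, adjusted p = 2.24e-08) and Itga3 at 6.42 and 6.75 CPM (-1.72 ± 0.22, adjusted p = 1.82e-07). Itgb5 was higher, at 53.4 and 58.6 CPM (0.42 ± 0.13, adjusted p = 0.0103). The counts were 3 lower and 1 higher, where 20.6% of all genes were lower and 21.1% higher. The Itgb5 call, and that in inner root sheath and shaft, was lost at the finer clustering (adjusted p = 0.0777 and 0.197). Sebaceous-like cells, which were not tested, had 81.2 and 101.5 CPM of Itgb1 and 6.28 and 11.2 CPM of Itgb5.

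Melanocyte-like cells carried a set of their own: high Itgb1 and Itga9 with little Itga3 or Itgb5. Itga9, whose product pairs with beta1 and binds tenascin and other matrix proteins, was at 50.8 and 47.75 CPM (235 and 393 UMIs). It had 1 and 5 UMIs in all resting basal cells, and the ratio of the pooled levels was 320-fold (95% counting interval 146 to 876). Itgb1 was at 388 and 397 CPM, above resting basal cells in both mice (log2 fold change 0.35 ± 0.13, adjusted p = 0.0246). Itgav was at 26.8 and 29.3 CPM and did not differ detectably (log2 fold change -0.05 ± 0.14), whereas Itgb5 was at 7.35 and 8.51 CPM (-2.61 ± 0.17, adjusted p = 1.36e-13). Itga3, Itga2 and Itgb8 were also lower, by log2 fold changes of -2.70 ± 0.22, -2.0 ± 0.43 and -1.08 ± 0.29 (adjusted p = 1.57e-11, 0.000315 and 0.00257). With cells under 5% mitochondrial UMIs, Itga2 was at 1.95 and 1.93 CPM (2 and 7 UMIs) against 3.27 and 3.96 CPM in resting basal cells (3 and 20 UMIs). Itgb8 was then at 3.90 and 2.21 CPM against 9.81 and 9.905 CPM. In all, 2 of the 10 genes were higher and 4 lower, where 26.3% of all genes were higher and 25.4% lower. One of the former is Itga9, which passed the filter only through such classes, and nothing is read from its part in the count.

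Of the melanocyte-like clusters, the smaller (270 of 1165 cells) held 3896 CPM of Krt5 and Krt14, against 461 CPM in the other, and a median of 16273.5 UMIs. It also had more Itgb5 (16.2 and 19.7 CPM against 2.37 and 2.10 CPM) and less Itga9 (34.75 and 35.7 CPM against 59.8 and 54.7 CPM). With that cluster left out, an alternative chosen after the data were seen, the log2 fold change of Itgb5 was -4.45 and that of Itga3 -4.55, and Itgb6 was also lower (-2.48, adjusted p = 0.0023). The dermal mesenchyme-like cells were the other Itga9 class, with 62.2 and 43.7 CPM from 13 and 17 UMIs, and also had high Itgb1 (431 and 342 CPM), Itgb5 (105 and 90.0 CPM) and Itgav (47.8 and 36.0 CPM). The intervals of melanocyte-like and dermal cells overlap for Itga9.

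**Figure D4:**
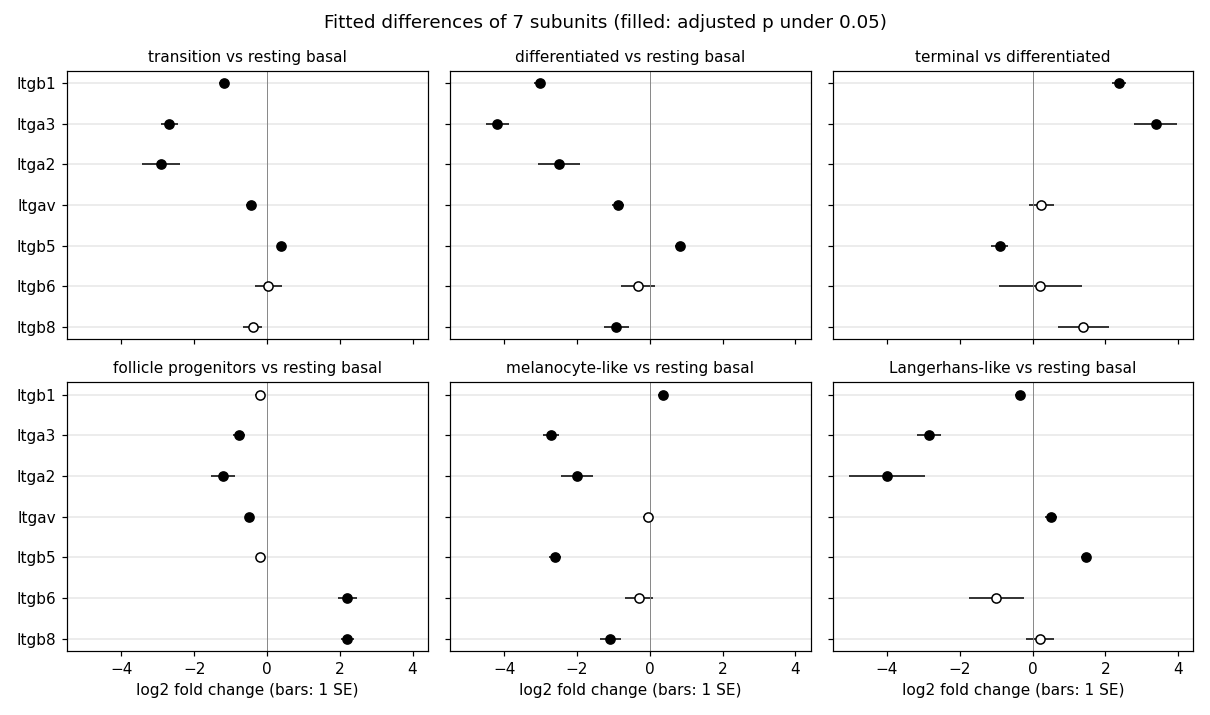
Log2 fold change with 1 SE for 7 subunits in 6 comparisons of cell classes (edgeR over all genes, 2 mice per class; filled points have an adjusted p under 0.05; Itga2 is left out of the terminal panel because it had no UMI there). Itgb1, Itga3 and Itga2 lie left of 0 in transition and differentiated IFE, Itgb6 and Itgb8 lie near 2.2 in follicle progenitors, and Itgb5 lies on opposite sides of 0 in melanocyte-like (-2.61) and Langerhans-like cells (1.47).

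Langerhans-like cells combined Itgb2 with high Itgb5. Itgb2 was at 27.2 and 23.7 CPM (43 and 51 UMIs) and gave 1 UMI in all resting basal cells, a ratio of 991-fold (95% counting interval 174 to 39560). Its partners Itgam, Itgax and Itgal had means of 36.2, 28.5 and 21.5 CPM in the class. Itgb5 was at 108 and 100 CPM (log2 fold change 1.47 ± 0.14 against resting basal IFE, adjusted p = 5.16e-10) and Itgav at 34.8 and 28.8 CPM (0.51 ± 0.17, adjusted p = 0.0135). The Itgav call was lost with cells under 5% mitochondrial UMIs (log2 fold change 0.47, adjusted p = 0.0986), at 35.2 and 28.4 CPM against 31.6 and 28.1 CPM in resting basal cells. Itga9 was at 8.86 and 9.30 CPM (14 and 20 UMIs), or 59.75-fold the pooled resting basal level (24.8 to 174). With cells under 5% mitochondrial UMIs it was at 2.71 and 9.65 CPM (3 and 18 UMIs). Resting basal cells then had 1.09 and 0.198 CPM, from 1 UMI in each mouse.

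Itga3 and Itga2 were low in Langerhans-like cells. Itgb8 was at 142% and 66% of its resting basal level there, and Itgb6 at 47.8% and 36.1%. Neither of these 2 genes passed the edgeR test against resting basal IFE (adjusted p = 0.714 and 0.29). Itga3 was at 5.06 and 3.255 CPM (log2 fold change -2.85 ± 0.34, adjusted p = 4.18e-08) and Itga2 gave 0 and 1 UMIs. Itgb1 was at 168 and 197 CPM (-0.35 ± 0.14, adjusted p = 0.0404) and lost the call with other size factors (-0.21, adjusted p = 0.227), with DESeq2 (-0.21, adjusted p = 0.153) and with cells under 5% mitochondrial UMIs (-0.11, adjusted p = 0.66). Krt5 and Krt14 summed were at 5.99% and 9.95% of their resting basal level in the class, beside which Itga3 stood at 13.9% and 10.2%. In all, 4 of the 10 genes were higher and 3 lower, where 25.6% of all genes were higher and 24.7% lower. Of the 4, Itgb2 and Itga9 passed the filter only through the non-epithelial classes in which they are high, so nothing is read from their part in the count.

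T-like cells were the Itgae class. Itgae was at 356 and 339 CPM (199 and 140 UMIs), and 94.2% and 89.5% of the cells had an Itgae UMI, against 0.0718% and 0.1201% of resting basal cells. Median depths were 9061 UMIs per T-like cell and 7991 to 10889 in the resting basal clusters, and after thinning to 3000 UMIs the T-like shares were 65.4% and 71.05%. Langerhans-like cells had none, and against a floor of 3 UMIs over that class Itgae was at least 434-fold higher in T-like cells. Its partner Itgb7 had a mean of 265.8 CPM in T-like cells and 4.2 CPM in Langerhans-like cells. Their ligand Cdh1 was at 109 CPM in the T-like class and 141.8 CPM in resting basal IFE. Itgb2 was at 21.5 and 16.9 CPM (12 and 7 UMIs) and did not differ detectably from Langerhans-like cells (log2 fold change -0.75 ± 0.45, adjusted p = 0.284).

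Itgb5 and Itgb1 were lower in T-like than in Langerhans-like cells. Itgb5 was at 23.3 and 31.45 CPM (log2 fold change -2.32 ± 0.26, adjusted p = 5.82e-08) and Itgb1 at 87.7 and 135.5 CPM (-1.12 ± 0.19, adjusted p = 5.63e-05). Itga9, with 0 and 1 UMIs, was called lower too and lost the call with DESeq2 (adjusted p = 0.0626). Here 1 of the 10 genes was higher and 3 were lower, where 9.12% of all genes were higher and 14.2% lower. The higher gene, Itgae, passed the filter only through T-like cells and Itga9 only through other classes, so nothing is read from their part in the count. Krt5 and Krt14 summed were at 8.24% and 17.9% of their resting basal level in T-like cells, and the class had 52 and 38 cells. Outside T-like cells the mean of Itgae was highest in sebaceous-like cells (2.24 and 1.64 CPM), from 5 UMIs in each mouse.

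The other genes of the integrin system were counted from 3 lists. Of 16 other integrin subunits, 12 passed the filter, and 3 were lower and 1 was higher in differentiated than in resting basal IFE. The hemidesmosome subunits Itgb4 and Itga6 fell by 4.18 and 3.26 on the log2 scale and Itga5, the fibronectin receptor subunit, by 1.44. Itgam was called higher (4.12 ± 0.90) at a mean of 1 CPM in differentiated cells. It passed the filter only through Langerhans-like cells (mean 36.2 CPM), so nothing is read from its part in the count. Of 19 genes of activation and adhesion machinery, 10 were lower and 9 did not pass. These counts stand beside 26.6% of all genes lower and 25.5% higher in the same comparison, so 3 of 12 lower subunits is close to the share over all genes. The lower genes included the focal adhesion proteins Zyx (-3.05 ± 0.23), Parva (-2.96 ± 0.27) and Actn1 (-2.16 ± 0.20) and the tetraspanin Cd151 (-2.46 ± 0.15). Of the 21 ligands and Tgf-beta genes tested, 14 were lower and 3 higher. The lower genes included Icam1, a ligand of beta2 integrins (-4.22 ± 0.29), the laminin chain gene Lamb3 (-4.02 ± 0.20) and Tnc, which encodes tenascin C (-3.92 ± 0.31).

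In hair follicle progenitors the same lists moved in both directions. Of the other subunits 3 were higher and 2 lower than in resting basal IFE, where 16.9% of all genes were higher and 15% lower. Itga1, a collagen receptor subunit, rose by 4.28 ± 0.27 on the log2 scale, Itga8 by 3.93 ± 0.34 and Itga4 by 2.71 ± 0.85, and Itgb4 fell by 1.29. Itga4 was near 0 in both classes, at 0.619 and 0.37 CPM in progenitors against 0.071 and 0.0396 CPM in resting basal IFE. It passed the filter only through other classes, such as Langerhans-like cells (mean 52.1 CPM), so nothing is read from its part in the count. Of the ligand and Tgf-beta list 8 were higher and 5 lower. The 3 largest rises were in Ltbp1, the latent Tgf-beta binding protein (5.51 ± 0.21), Tgfb2 (5.49 ± 0.20) and Tgfb3 (3.52 ± 0.17), while Icam1 was lower (-2.42 ± 0.18). Of the machinery list 5 were higher and 1 lower, with Fermt2, which encodes kindlin-2, at 4.20 ± 0.21, Tln2 at 1.74 ± 0.17, Parva at 0.87 ± 0.13 and Zyx at -0.91 ± 0.15.

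Genes with the most similar pattern over the 16 named classes were ranked by Pearson's r of log2(CPM + 1), as a description. Itgae was closest to the T cell genes Cd247 (0.988), Cd3e (0.987) and Sit1 (0.981), and Itgb2 to Fgr, Sh2d1b1 and Slamf7, all above 0.999. Itgb6 was closest to Lrig1 (0.882), Fam132a (0.862) and Tcf7l2 (0.856), and Itgb8 to Lap3 (0.875), Cpsf4l (0.846) and Alcam (0.841). Itga3 was closest to Lfng (0.958), Ctnnal1 (0.949) and Clec2l (0.937), and Itga9 to Eng (0.948), B4galt6 (0.947) and Cnrip1 (0.941). For Itgb1 the closest were Zkscan17, Morf4l1 and Bod1l (0.927 to 0.939), for Itgav Msrb2, Cant1 and Man2b2 (0.884 to 0.92), for Itga2 Setdb1, Cep162 and Rnf168 (0.834 to 0.854) and for Itgb5 Lrp1, Dusp1 and Ddx26b (0.795 to 0.812). Among the 10 genes themselves the closest pairs were Itgb6 with Itgb8 (0.772) and Itgb1 with Itga3 (0.721). The unnamed Tagln and Foxe1 cluster, which had the highest Itgb6 and less Itgb8 than progenitors, is not in these values. The classes share libraries and some are 39 to 109 cells, and low genes follow the few classes in which they were detected.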

How the data were processed

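Epidermal cells of 2 KO mice were profiled by 10x droplet sequencing, 1 library per mouse. The deposited values are raw UMI counts per gene and barcode, made by the authors with Cell Ranger 3.0.2 and mm10. Kept barcodes had between 900 and 7700 detected genes and a mitochondrial UMI share below 10%. Seurat 5.3.0 (R 4.3.3) integrated the mice over 2000 variable genes without integrins, with 30 dimensions and Louvain resolution 0.8, and IFE cells were reclustered. Clusters were named from marker lists by limits set after the clusters had been seen. UMIs were summed per mouse and class and tested with edgeR 4.0.16 (quasi-likelihood, TMM, filterByExpr, Benjamini-Hochberg over all genes, threshold 0.05), over 32 sums with 16 residual degrees of freedom for all cells and 16 sums with 8 for IFE. The script was tested on simulated data. The same mouse gives 1 sum to each class, so sums are paired by animal (correlation of deviations -0.04 to 0.35 over 120 class pairs); the main fit has no block. Poisson intervals (95%) and floors of 3 UMIs cover counting error only. Alternatives were DESeq2 1.42.0, RLE factors, no low-count filter, a block for the mouse, leaving out each mouse, doublets left out, under 5% mitochondrial UMIs and resolution 1.2. Scrublet (scanpy 1.11.5) called 2 and 416 doublets automatically, so doublets stayed in and the alternative left out the top 5% of scores per mouse, a choice made after seeing the data. Named genes were the integrin genes and, per list, up to 4 called genes with the greatest change, of which 1 is not reported here. Members and lists were chosen with earlier results of these data known.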

Additional observations from a re-analysis of the deposited data

How the results depend on the processing

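No call reversed under any alternative run. With cells under 5% mitochondrial UMIs, which left 614 of 3890 resting basal cells, called integrin genes numbered 0 in proliferating basal IFE (edgeR), 2 in transition, 3 in differentiated, 2 in terminally differentiated IFE and 3 in follicle progenitors. In Sox4-high against H19-high cells 2 were called without the filter and 2 with the replicate block of mouse. No call of the main fit was lost with the block. The block took all genes called from 2394 to 3648 in proliferating basal IFE and from 1029 to 2217 in Sox4-high cells, and the 5% limit took them to 651 and 31, with 2006 of 4229 in transition, 1953 of 4491 in follicle progenitors and 4375 of 7278 in melanocyte-like cells. The limit gave 5190 of 12071 genes in differentiated and 2680 in terminally differentiated IFE. Leaving out the melanocyte-like cluster with more keratin gave 7 called integrin genes and 7243 of 14108 in all. Calls lost numbered 18 under the 5% limit, 4 at resolution 1.2, 3 with DESeq2, 2 without doublets and 1 each with RLE factors and no filter. Not all calls lost under the 5% limit are named above. Leaving out a mouse gives values with no test. The IFE subclusters also shifted with the numerical library settings of the computation, seen after the data were examined; Itgb8 stayed higher in Sox4-high cells, and the settings were then fixed. The class with the highest mean changed for Itgb1, Itgb5 and Itgb8 in at least 1 alternative. Classes of 39 to 109 cells limit what could be detected. The cause of these changes was not tested.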

Other observations

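Barcodes removed for a mitochondrial share of 10% or more (2777 and 3315) still held integrin UMIs. Summed per mouse, they had 154 and 168.9 CPM of Itgb1, 70.5 and 64.85 CPM of Itgb5 and 39.4 and 34.3 CPM of Itgav. The kept cells of the same mice had 228.5 and 239.3 CPM, 46.7 and 40.65 CPM and 20.35 and 19.98 CPM of these genes.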
